A study of Mus musculus with 12 samples.

Results

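The transcripts of LPS-stimulated PECs were compared between 8 and 4 hr of stimulation, with genotype as a covariate, to find which messages were already lower at 8 hr and which were still higher. The comparison used every library labelled 4 or 8 hr, which is 8 of the 12 RNA-seq libraries of the series: 4 at 4 hr and 4 at 8 hr. PECs are peritoneal exudate cells, here mostly macrophages drawn into the abdomen by an irritant. Here, C57BL/6 mice received 2 ml of 4% Brewer's thioglycollate medium, peritoneal macrophages were collected 3.5 days later and cultured, and LPS was added at 100 ng/ml. Each time point holds 2 libraries from WT mice and 2 from Zc3h12a S513A/S513A knock-in mice (S513A). Zc3h12a encodes Regnase-1, and the knock-in replaces 1 serine of the protein with alanine at its own locus. The 4 unstimulated libraries (0 hr) are given only as levels. The knock-in alters a codon and not the gene's abundance, so Zc3h12a counts cannot check the genotype labels.

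LPS is sensed by TLR4 on macrophages. One adaptor arm, through MyD88, activates NF-kappaB and MAP kinases and switches on cytokine and chemokine genes, and the other, through TRIF, induces type I interferon, which then acts on the same cells through its receptor. Many early cytokine messages carry AU-rich elements or stem-loops in the 3' UTR, and RNA-binding proteins such as tristetraprolin (Zfp36), the Roquins and Regnase-1 shorten their lives. RNA-seq of total cellular message gives the net level of each transcript, so a lower level at 8 hr does not separate slower synthesis from faster degradation.

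Depth was 9525979 to 12381047 reads in genes for each of the 8 libraries (median 11014168), so 3 reads, taken as the floor, lay at a log2 CPM of -1.73 to -1.30. CPM is a count scaled to library size (counts per 1e6 reads), and all levels below are log2 CPM. The libraries of a time point were not equally close: the SD of the difference between the 2 replicates over 8337 genes was 0.40 log2 units for WT 4 hr, 0.16 for WT 8 hr, 0.29 for S513A 4 hr and 0.34 for S513A 8 hr. The first principal component (50.5% of the variance) put all 4 libraries at 4 hr on one side of all 4 at 8 hr, although WT 4 hr replicate 2 stood apart from the other 4 hr libraries on the second (-29.7 against -9.2 to 9.2) and S513A 8 hr replicate 1 from the other 8 hr libraries (-15.4 against 8.4 to 20.9). Macrophage markers were high in every library, with the 7 genes of the list summing to 18700 to 26400 CPM at 4 hr and 16200 to 23900 at 8 hr. The neutrophil markers, of which 4 of 12 were in the table, summed to 563 to 776 and 491 to 682 CPM, B cell markers to 24.0 to 28.5 and 17.2 to 32.9 CPM, and T and NK cell markers to 2.16 to 3.31 and 1.57 to 2.62 CPM. None of the 8 erythroid and platelet markers was in the table. In bulk RNA, fewer cells of a type and less RNA per cell cannot be told apart. Nothing in the labels says whether replicates came from separate mice or cultures, so p-values measure the spread between these libraries, which may be technical.

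Between 4 and 8 hr, 1018 of 11885 genes tested fell (8.57%) and 1007 rose (8.47%), at an adjusted p under 0.05 with limma. Of these, 225 (1.89%) fell and 223 (1.88%) rose by 2-fold or more. The shares of 8.57% and 8.47% are the background for the counts of each gene list below in the same fit. The median log2 fold change over all genes was -0.02, so the changes below stand against a centre near 0. The libraries of the 2 time points did not overlap for 2810 genes (23.6%), which is the background for each statement below that the time points were separate. The 2025 calls became 1184 without WT 4 hr replicate 1, 1139 without WT 8 hr replicate 1, 1346 without WT 8 hr replicate 2, 1170 without S513A 4 hr replicate 1 and 1102 without S513A 8 hr replicate 2. No gene called both with and without a library changed direction. Of the genes named below, Il23a, Gbp8, Lif, Nr4a3, H2-Oa, Arg1, Pdcd1lg2, Dusp8, Gbp2b, Cxcl9, Adm and Cish passed the test with under 20 reads in at least 1 library, so their folds are less well set.

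**Figure D1:**
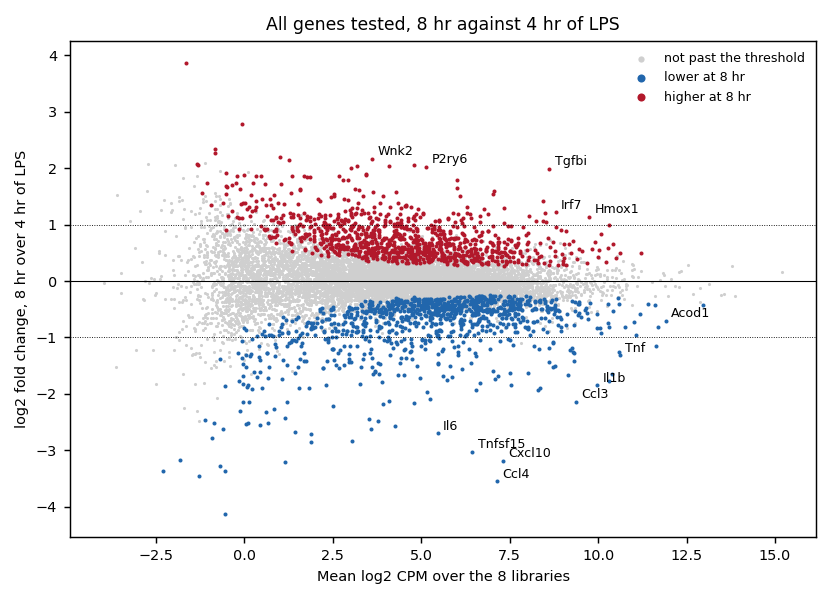
Each point is 1 of 11885 genes tested, with its mean log2 CPM over the 8 libraries (x axis) against its log2 fold change, 8 hr over 4 hr (y axis). Blue points fell (1018 genes) and red points rose (1007 genes) at an adjusted p under 0.05, and dotted lines mark 2-fold.

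Inflammatory cytokine messages were the list with the most falling members by count. The falling share was higher among the Regnase-1 targets (90.0% against 75.0%), a list that also holds Il6. Of 20 cytokine and growth factor genes tested, 15 fell, 11 of them by 2-fold or more, and none rose. Their median log2 fold change was -1.30, against -0.02 over all genes. Each of the 8 fits that left out 1 library called 14 or 15 of them lower and none higher. Il10, Ifnb1, Csf2 and Il36g were not analysed here.

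Il6, the gene for interleukin 6, which drives acute-phase and T-helper responses (Entrez 16193, chr5:30013114-30019975, GRCm38), had log2 CPM of 6.90 and 6.38 in WT and 6.63 and 7.37 in S513A at 4 hr. At 8 hr its levels were 3.94 and 4.29 in WT and 3.64 and 4.59 in S513A. All 8 hr libraries lay below all 4 hr libraries and above the 0 hr levels of -3.12 to -0.76. The fall was 6.51-fold, a log2 change of -2.70 (SE 0.25, 95% interval -3.28 to -2.12, adjusted p = 0.000385 with limma).

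Il12b, the shared p40 chain of interleukins 12 and 23, stood at 7.57 and 7.47 in WT and 7.47 and 7.70 in S513A at 4 hr. It was at 5.78 and 5.92 in WT and 5.56 and 5.76 in S513A at 8 hr, a 3.48-fold fall with less scatter between libraries than Il6 (SE 0.10). Il23a, the partner chain that makes interleukin 23, was counted in only 10 to 19 reads per library at 4 hr. At 8 hr it had 0 reads in both WT libraries and 4 and 2 reads in S513A, so its fall passed the test (adjusted p = 0.00553, limma) but its size is not well set at this depth. Il12a, the p35 chain of interleukin 12, fell by 0.46 on the log2 scale.

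Tnf, a first-wave cytokine, was at 11.15 and 11.07 in WT and 11.44 and 11.45 in S513A at 4 hr, and at 9.73 and 9.91 in WT and 10.03 and 10.17 in S513A at 8 hr. The time points did not overlap, and the fall was 2.49-fold (log2 change -1.32, SE 0.09). Its 8 hr levels were still far above the 4.88 to 5.61 of unstimulated cells. Il1b fell 3.59-fold (log2 change -1.85, SE 0.17), from 10.51 to 11.20 at 4 hr to 8.78 to 9.24 at 8 hr. Il1a fell by 1.41 on the log2 scale, while Il1rn, the gene for the receptor antagonist that blocks both, had a log2 change of -0.14 and did not pass the test.

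Among the other cytokines, Tnfsf15, a TNF family ligand that costimulates lymphocytes, fell 8.15-fold (log2 change -3.03, SE 0.13). Lif, an interleukin 6 family cytokine, fell 9.27-fold, from 2.63 to 2.91 at 4 hr to -1.04 to 0.00 at 8 hr. Il27 fell by 2.1 and Il15 by 1.09 on the log2 scale. The cytokine genes that did not pass were Il19 (-2.30), Il18 (-0.47), Csf1 (-0.34), Il1rn and Ebi3 (0.20). Il19 is an instance of a large change with too wide a spread for a call.

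**Figure D2:**
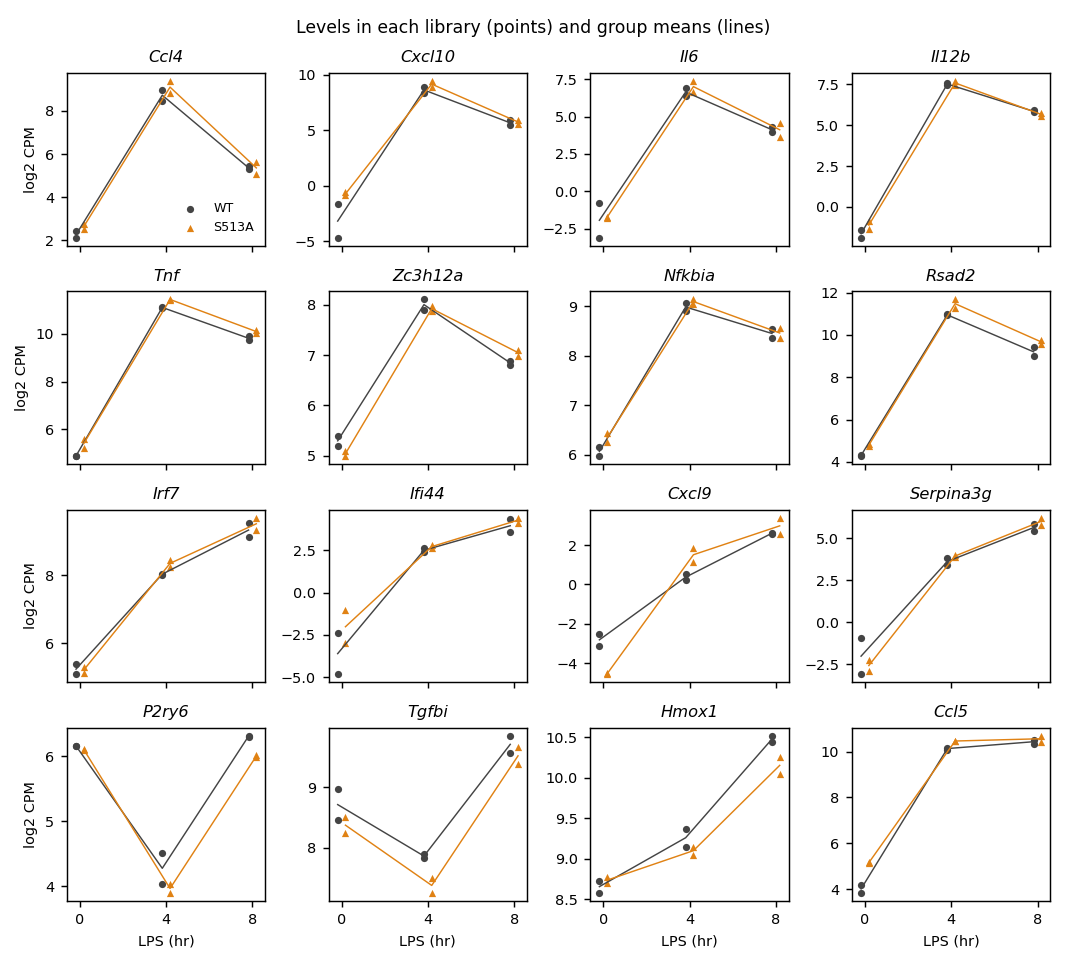
Log2 CPM (y axis) of 16 genes against hours of LPS (x axis), with 1 point per library and lines through the group means of WT (circles) and S513A (triangles). Of the times sampled, Ccl4, Cxcl10, Il6, Il12b, Tnf, Zc3h12a, Nfkbia and Rsad2 were highest at 4 hr. Irf7, Ifi44, Cxcl9, Serpina3g and Hmox1 were highest at 8 hr, P2ry6 and Tgfbi were lowest at 4 hr, and Ccl5 lay between 10.09 and 10.69 at both 4 and 8 hr.

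Chemokine genes moved in both directions, and ligands of 1 receptor did not all move the same way. Ccl4, a CC chemokine that recruits monocytes and T cells (Entrez 20303, chr11:83648624-83664683, GRCm38), had the largest fall of all genes with a mean level of at least 3. Its levels were 8.98 and 8.47 in WT and 8.82 and 9.38 in S513A at 4 hr, and 5.29 and 5.44 in WT and 5.09 and 5.63 in S513A at 8 hr. This is an 11.7-fold fall (log2 change -3.55, SE 0.19, adjusted p = 4.87e-05 with limma), to levels above the 2.12 to 2.77 of unstimulated cells. Ccl3, its neighbour in function, fell 4.4-fold, from 10.13 to 10.68 at 4 hr to 8.07 to 8.45 at 8 hr. The listed span of Ccl3 (chr11:83647843-83649378) overlaps that of Ccl4, and reads there, counted without strand, may belong to either gene.

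Cxcl10, an interferon-induced ligand of CXCR3 that recruits T cells, was at 8.86 and 8.40 in WT and 8.88 and 9.43 in S513A at 4 hr. At 8 hr it was at 5.45 and 5.88 in WT and 5.54 and 5.95 in S513A, a 9.13-fold fall (log2 change -3.19, SE 0.19). Cxcl9, a ligand of the same receptor, went the other way: it was at 0.54 and 0.20 in WT and 1.15 and 1.87 in S513A at 4 hr, and at 2.59 and 2.62 in WT and 2.56 and 3.40 in S513A at 8 hr. Neither gene's time points overlapped, and the Cxcl9 rise was 3.62-fold (log2 change 1.85, SE 0.27, adjusted p = 0.00279).

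The neutrophil-attracting Cxcl1 fell 3.83-fold (log2 change -1.94, SE 0.16) and Cxcl2 3.14-fold (-1.65, SE 0.09), while Cxcl3 fell by 0.82 on the log2 scale. In all, 4 of 12 CXC chemokines fell and 1 rose (2 without S513A 8 hr replicate 1), and 4 of 10 CC chemokines fell and none rose. After removal of length and GC trends 7 CC chemokines fell, as with the first factor of the replicate deviations as a term, and 3 CXC chemokines rose, while with all 12 libraries 7 CXC chemokines fell. Ccl6 and Ccl9, which unstimulated PECs already express, fell by 1.05 and 0.96 on the log2 scale, and the call for Ccl6 was lost in 5 of the 8 fits without 1 library. Ccl2 (-0.63) and Ccl7 (-0.86), which attract monocytes, did not pass the test. Ccl5, another CC chemokine, did not pass either. Its levels were 10.18 and 10.09 in WT and 10.47 and 10.46 in S513A at 4 hr, and 10.35 and 10.52 in WT and 10.44 and 10.69 in S513A at 8 hr, with overlap. Its log2 change of 0.20 had an interval of -0.03 to 0.43, which leaves out a fall of the size seen for Ccl4.

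AU-rich elements in 3' UTRs were compared as a description. The heptamer TATTTAT occurred in the 3' UTR of 93 of 215 genes that fell by 2-fold or more (43.3%), 60 of 209 that rose by 2-fold or more (28.7%) and 3146 of all 11075 tested genes with a 3' UTR (28.4%). Per kilobase of 3' UTR there were 0.496, 0.233 and 0.290 heptamers. The longer nonamer TTATTTATT, in which a heptamer is always contained, was in 25 (11.6%), 14 (6.7%) and 817 (7.38%). Median 3' UTR lengths were 1360, 1340 and 1020 bases, so the falling and rising sets were alike in length and both longer than the rest. Among genes with 3' UTRs of up to 592 bases, the nonamer was in 6.25% of fallen, 1.96% of risen and 2.22% of all genes, with only 3 fallen and 1 risen gene behind these shares. Among those of 593 to 1642 bases it was in 10.4%, 4.05% and 5.99%, and among longer ones in 15.6%, 11.9% and 13.9%, so the fallen and risen genes were closest in ratio where 3' UTRs were long. Pumilio elements (TGTANATA) were in 29.8%, 26.3% and 24.9%. In the alternative fit with length and GC trends taken out, the heptamer shares were 42.5% and 30.3%, and the median GC contents of the transcripts, 49.1% and 52.3% before, were 49.8% and 50.2%.

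The sites in 6 early-response genes that fell are shown because each holds the nonamer, here in capitals. They are written 5' to 3' along the transcript from GENCODE vM21 on GRCm38, and each is the first nonamer of the 3' UTR with 10 bases on either side. Cxcl2 and Tnf held 4 and 5 nonamers in all, Cxcl1 held 2, and the others 1 each.
Cxcl1 (chr5:90892615-90892643, plus strand): atttatgtatTTATTTATTccacaaagtg
Cxcl2 (chr5:90905316-90905344, plus strand): gagagttcacTTATTTATTtatctatgta
Ptgs2 (chr1:150105790-150105818, plus strand): ctgaccatatTTATTTATTtatgtgaaga
Tnf (chr17:35199689-35199717, minus strand): tttgcacttaTTATTTATTatttatttat
Acod1 (chr14:103055748-103055776, plus strand): ttctgaggaaTTATTTATTaactctggga
Nfkbia (chr12:55489608-55489636, minus strand): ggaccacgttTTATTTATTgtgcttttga
These genes fell by 0.58 (Nfkbia) to 1.94 (Cxcl1) on the log2 scale. Il6, Il1b, Il12b, Nfkbiz, Zc3h12a and Cxcl10, which fell as well, held no nonamer in the transcript used. Il6, Il12b and Il1b held 1, 1 and 3 heptamers. Nonamers were also present in genes that rose: Fos, Gbp4, E2f1 and Chac1 held 1, 1, 2 and 1. Dusp1 and Zfp36, which did not pass the test, held 2 and 1. Of the 20 cytokine genes, 6 held a nonamer (Tnf, Il12a, Il23a, Il27, Lif and Inhba), and of 38 interferon-stimulated genes none did. None of the 10 CC chemokine genes, of which 4 fell, held one, while 8 of 26 RNA decay genes did (30.8%).

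**Figure D3:**
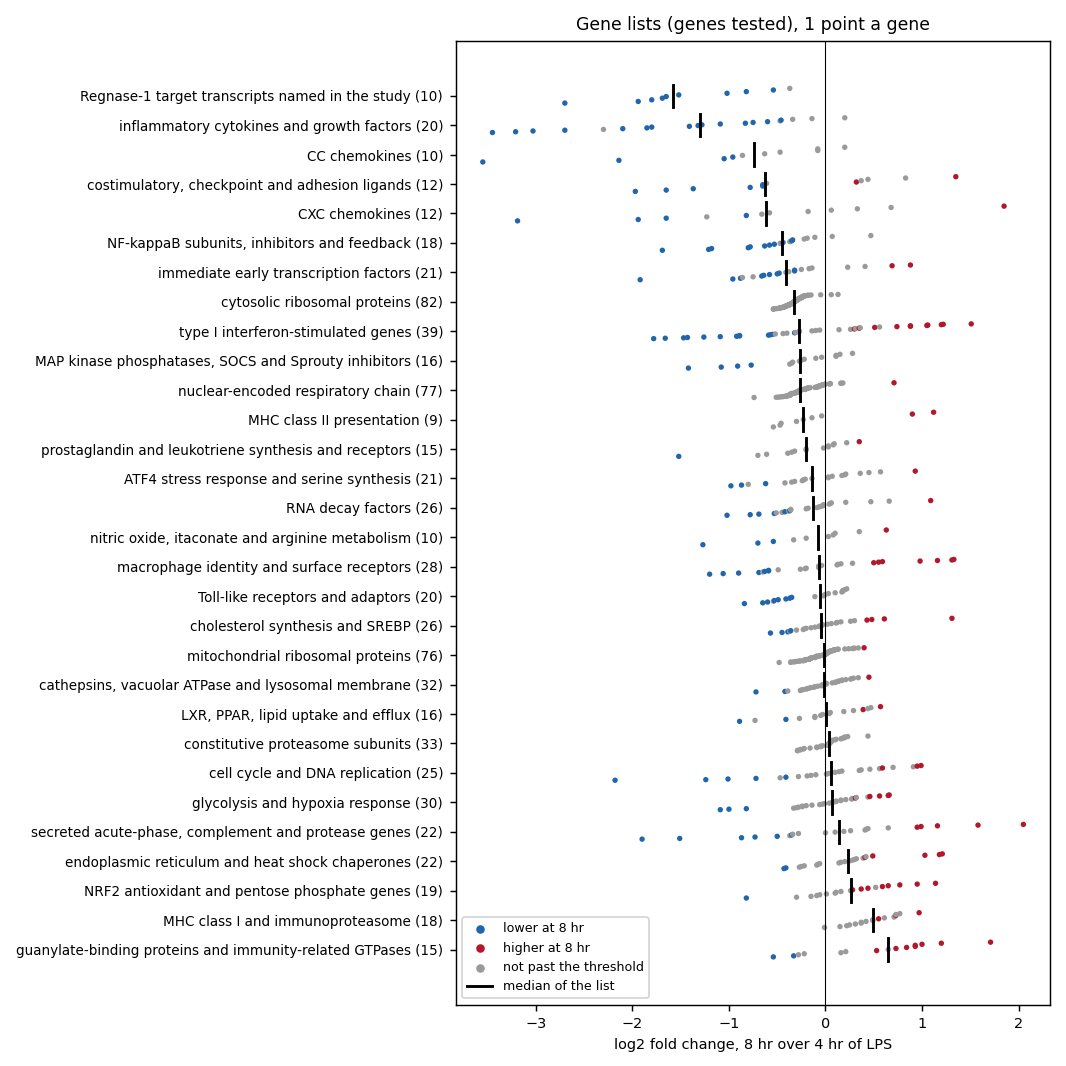
Log2 fold change, 8 hr over 4 hr (x axis), of every tested member of 30 gene lists, with 1 point per gene and a black bar at each list's median. The lists are ordered by median, from the Regnase-1 targets (-1.58) to the guanylate-binding proteins and immunity-related GTPases (0.65), and grey points did not pass the test.

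Of the 10 transcripts that the study names as Regnase-1 targets, 9 fell, 7 of them by 2-fold or more, with a median log2 change of -1.58. The study marks several of them in its own plots of these samples, so the list is not taken as independent evidence of a direction. Every fit without 1 library called 9 or 10 of them lower. Beside Il6, Il12b and the chemokines, they included Nfkbiz, an atypical NF-kappaB inhibitor that also coactivates secondary response genes. It was at 7.94 and 8.12 in WT and 8.03 and 8.00 in S513A at 4 hr, and at 6.26 and 6.19 in WT and 6.45 and 6.42 in S513A at 8 hr. Replicates lay close together, and the fall was 3.23-fold (log2 change -1.69, SE 0.09). Ptgs2, the inducible cyclooxygenase of prostaglandin synthesis, fell 2.86-fold (-1.52, SE 0.15), Mafk by 0.54 on the log2 scale, and Nfkbid (-0.37) did not pass.

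Zc3h12a itself (Entrez 230738, chr4:125118414-125127881, GRCm38) fell. It was at 7.90 and 8.11 in WT and 7.98 and 7.87 in S513A at 4 hr, and at 6.89 and 6.80 in WT and 7.11 and 6.99 in S513A at 8 hr. The fall was 2.02-fold (log2 change -1.02, SE 0.10, adjusted p = 0.000453 with limma), and the 8 hr levels remained above the 4.99 to 5.39 of unstimulated cells. Among 26 RNA decay genes, 6 fell (23.1%, against 8.57% of all genes) and 1 rose (3.85%, against 8.47%). These counts rested on single libraries. There were 2 falls without WT 8 hr replicate 1 or S513A 8 hr replicate 2. There were 3 falls without WT 8 hr replicate 2 or S513A 4 hr replicate 1, and 3 rises without WT 4 hr replicate 2. Dcp2, the decapping enzyme, fell by 0.78 and Xrn1, the exonuclease that degrades decapped RNA, by 0.53 on the log2 scale. Rc3h1 (Roquin-1) fell by 0.69, a call lost in 4 of the 8 fits without 1 library. The gene that rose was Zc3h12d, a Regnase-1 paralog, from 1.83 to 2.64 at 4 hr to 3.19 to 3.41 at 8 hr, a 2.12-fold rise (SE 0.20). Unstimulated cells had 4.01 to 4.33, so its level had been lower at 4 hr. Zfp36 (tristetraprolin) had a log2 change of -0.45 with an adjusted p of 0.0735, and its time points overlapped.

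The promoters of Il6, Cxcl1 and Cxcl2 are shown as the 3 Regnase-1 targets with the largest falls that carry an NF-kappaB motif (GGANTTTCC, searched on both strands) upstream of the start. The motif is in capitals. In the RefSeq GRCm38.p6 promoters, which run from 250 bases before the start to 50 after, it was in 333 of 27025 (1.23%).
Il6 (chr5:30013041-30013109, plus strand): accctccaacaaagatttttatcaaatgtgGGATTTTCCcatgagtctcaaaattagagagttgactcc
Cxcl1 (chr5:90891145-90891213, plus strand): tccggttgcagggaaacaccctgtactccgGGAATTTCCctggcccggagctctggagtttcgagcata
Cxcl2 (chr5:90903773-90903841, plus strand): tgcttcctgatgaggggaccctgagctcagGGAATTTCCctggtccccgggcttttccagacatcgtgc
The motifs start 43, 70 and 96 bases before the start site. A promoter was found for 78.6% of the genes tested, too few for motif shares of fallen and risen genes to be read, so those shares are not reported.

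Of 18 genes for NF-kappaB subunits and their inhibitors, 11 fell and none rose (median -0.45), with 7 falls without WT 4 hr replicate 1, WT 8 hr replicate 1 or S513A 4 hr replicate 1, and 1 rise without WT 4 hr replicate 2. The subunit genes Rel and Nfkb1 fell 2.31-fold and 2.27-fold, Nfkb2 by 0.78 and Relb by 0.34 on the log2 scale, and Rela (-0.19) did not pass. Nfkbia, which encodes the inhibitor that is resynthesised in each activation cycle, was at 9.07 and 8.90 in WT and 9.05 and 9.14 in S513A at 4 hr, and at 8.36 and 8.54 in WT and 8.35 and 8.57 in S513A at 8 hr. It fell by 0.58 on the log2 scale (SE 0.10), and the time points were separate. Tnfaip3, which encodes the ubiquitin-editing inhibitor A20, fell 1.55-fold (SE 0.10) and Traf1 1.75-fold (SE 0.10). Of 20 Toll-like receptor and adaptor genes, 8 fell and none rose, among them Cd14, the LPS co-receptor (1.78-fold), Tlr8, Tirap, Irak2 and Myd88 (by 0.65, 0.60, 0.53 and 0.41 on the log2 scale). Tlr4 had a log2 change of 0.18 and did not pass. That count was 5 without WT 4 hr replicate 1 or either S513A 4 hr library, 4 without S513A 8 hr replicate 2 and 3 without WT 8 hr replicate 1, and without WT 4 hr replicate 2 1 gene rose.

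Of 21 immediate early transcription factor genes tested, 10 fell and 2 rose (median -0.41), with 6 falls without replicate 1 of WT 4 hr, either library of WT 8 hr, S513A 4 hr replicate 1 or S513A 8 hr replicate 2. Nr4a3, an orphan nuclear receptor, fell 3.78-fold, Jund 1.94-fold and Atf3 by 0.58 on the log2 scale, while Myc fell 1.84-fold with a call lost in 6 of the 8 fits without 1 library. Fos, an AP-1 subunit, rose 1.62-fold from 3.15 to 3.66 at 4 hr to 3.87 to 4.18 at 8 hr, below the 5.29 to 5.44 of unstimulated cells. Egr2 rose 1.84-fold, also to below its 0 hr level of 6.77 to 6.88. Egr1 had a log2 change of -0.75 with an adjusted p of 0.0524. Among 16 MAP kinase phosphatase, SOCS and Sprouty genes, 4 fell and none rose: Cish 2.68-fold, Dusp2 1.88-fold, Dusp16 1.71-fold and Dusp8, whose time points overlapped. Dusp1 (0.11) and Socs3 (-0.35, adjusted p = 0.0575) did not pass.

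Type I interferon-stimulated genes split. Of 39 tested, 13 fell and 11 rose (median -0.27), shares of 33.3% and 28.2% against 8.57% and 8.47% of all genes. Without S513A 4 hr replicate 1 or S513A 8 hr replicate 2 the rises numbered 7, and over the 8 fits without 1 library the falls numbered 9 to 15. The fallen genes included Rsad2 (viperin), Cmpk2, its neighbour on the chromosome, Mx2, Mx1, Oasl1, Ifit1, Ifit2 and Ifih1, which encodes MDA5. The risen genes included that of the transcription factor Irf7 and Oas3, Zbp1, Bst2, Oas1a and Ifi44.

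Rsad2 was at 10.92 and 10.97 in WT and 11.27 and 11.68 in S513A at 4 hr, and at 8.98 and 9.42 in WT and 9.58 and 9.75 in S513A at 8 hr. It fell 3.43-fold (log2 change -1.78, SE 0.13), Cmpk2 3.16-fold and Mx2 2.77-fold (SE 0.13 for both). Irf7, the amplifier of interferon transcription (Entrez 54123, chr7:141263183-141266499, GRCm38), was at 8.01 and 8.04 in WT and 8.23 and 8.45 in S513A at 4 hr, and at 9.10 and 9.53 in WT and 9.32 and 9.68 in S513A at 8 hr. It rose 2.33-fold (log2 change 1.22, SE 0.13, adjusted p = 0.000655 with limma). Ifi44 rose 2.85-fold (SE 0.18). Each of these genes had time points that did not overlap. Isg15, a ubiquitin-like modifier, did not pass: it was at 9.54 and 8.85 in WT and 9.53 and 10.17 in S513A at 4 hr, and at 9.01 and 9.40 in WT and 8.37 and 9.25 in S513A at 8 hr, and the interval of its log2 change ran from -1.21 to 0.18.

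**Figure D4:**
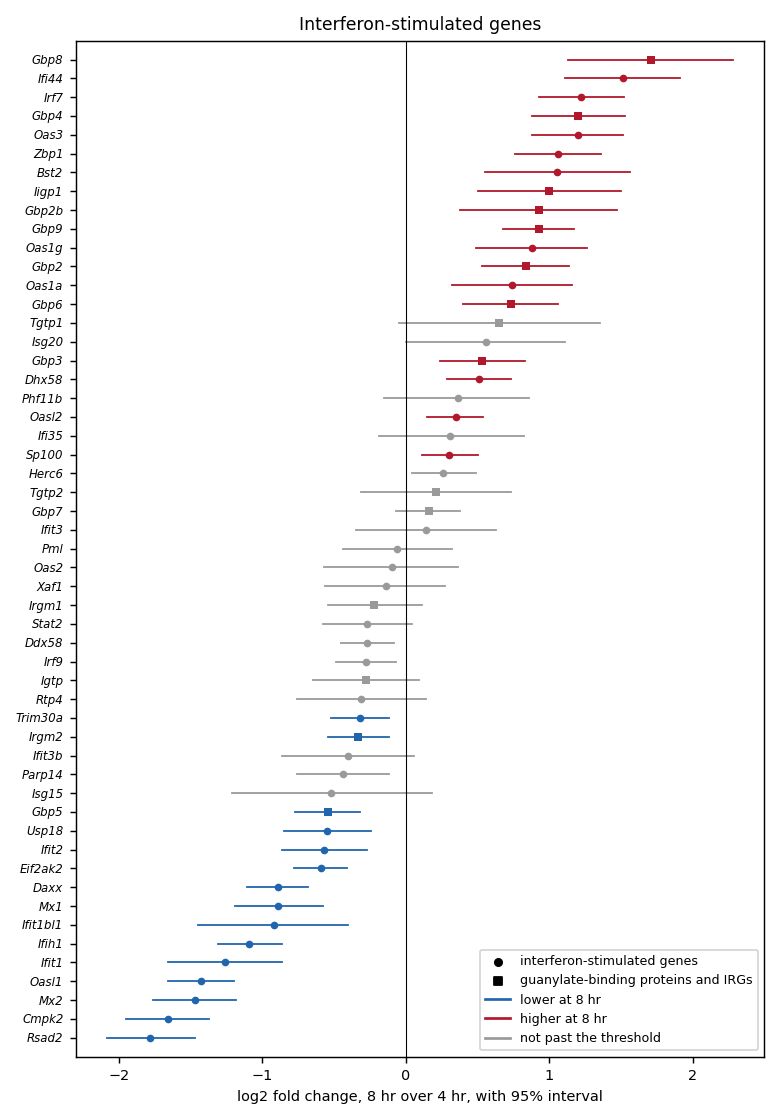
Log2 fold change, 8 hr over 4 hr, with its 95% interval (x axis) for 38 of the 39 interferon-stimulated genes (circles) and 15 guanylate-binding protein and immunity-related GTPase (IRG) genes (squares). Rsad2 lies at one end (-1.78) and Gbp8 at the other (1.71), with 13 and 2 of the genes shown lower (blue) and 10 and 8 higher (red).

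Guanylate-binding protein and immunity-related GTPase genes, whose products attack intracellular vacuoles and bacteria, were more often called higher than lower. Of 15 tested, 8 rose and 2 fell (median 0.65), with 5 rises without WT 4 hr replicate 1, WT 8 hr replicate 2 or S513A 8 hr replicate 2, and 1 fall in each fit without 1 library other than those without WT 4 hr replicate 2 or WT 8 hr replicate 2. Gbp4 rose 2.30-fold (SE 0.14) and Iigp1 2.00-fold, a call lost in 3 of the 8 fits without 1 library. Gbp8 and Gbp2b rose from fewer than 20 reads per library at 4 hr, so these rises rest on few reads. Gbp5 (-0.54) and Irgm2 (-0.33) fell. Reads of these near-identical family members may be shared between genes, and the same holds for the Ifit and Oas genes, Serpina3f and Serpina3g, Hspa1a and Hspa1b, and H2-Q4.

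MHC class I and immunoproteasome genes had a median log2 change of 0.49, and 17 of 18 values were above 0, but only H2-T22 (1.95-fold), H2-Q4 (1.66-fold) and Tapbp (1.46-fold) passed. These 3 are 16.7% of the list, against 8.47% of all genes. The number that rose was 6 without WT 4 hr replicate 2 or S513A 4 hr replicate 2 and 11 without S513A 8 hr replicate 1. It was 5 with a further pseudocount of 1 CPM or a replicate block, 10 with all 12 libraries, 11 with quantile normalization, 13 with the first factor as a term and 16 after removal of length and GC trends. Tapbp lost its call in 5 of the 8 fits. For MHC class II, Ciita, the master regulator of the pathway, rose 1.87-fold and H2-Oa 2.17-fold, while Cd74 (-0.30), H2-Aa (-0.46) and H2-Ab1 (-0.23) did not pass. Of the 9 MHC class II genes 2 rose (22.2%, against 8.47% of all genes). Only 1 rose without S513A 4 hr replicate 1, S513A 8 hr replicate 2, WT 4 hr replicate 1 or either WT 8 hr library. Without WT 4 hr replicate 2, 3 fell.

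The genes with the largest rises were of varied function, and several had been lower at 4 hr than at 0 hr. P2ry6, a receptor for UDP, was at 4.51 and 4.04 in WT and 4.03 and 3.90 in S513A at 4 hr, and at 6.30 and 6.31 in WT and 5.98 and 6.02 in S513A at 8 hr. It rose 4.09-fold (log2 change 2.03, SE 0.11, adjusted p = 4.87e-05 with limma), to about the 6.09 to 6.16 of unstimulated cells. Tgfbi, a secreted matrix protein, rose 3.98-fold, from 7.26 to 7.90 at 4 hr to 9.38 to 9.85 at 8 hr, against 8.24 to 8.97 at 0 hr. Tmem86a rose 4.11-fold, Foxred2 4.11-fold, Pde7b, a phosphodiesterase specific for cyclic AMP, 3.73-fold, and Arhgap27 3.12-fold. At 0 hr Tmem86a stood at 6.00 to 6.22, Foxred2 at 5.08 to 5.24 and Pde7b at 4.59 to 4.81, above each gene's 4 hr levels.

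Other risen genes were low at 0 hr or near their 4 hr level. Serpina3g, an intracellular inhibitor of cathepsins, was at 3.83 and 3.40 in WT and 3.89 and 3.99 in S513A at 4 hr, and at 5.44 and 5.83 in WT and 5.80 and 6.23 in S513A at 8 hr. Between 4 and 8 hr it rose 4.15-fold (SE 0.15) and its relative Serpina3f 2.99-fold. Their 0 hr levels were no higher than -0.94. Ms4a4c and Clic5 rose 3.45-fold and 3.68-fold. Wnk2, a kinase, rose 4.51-fold with a wider spread (SE 0.32), the glycine transporter gene Slc6a9 4.00-fold, and Acss2, which makes acetyl-CoA from acetate, 3.14-fold with an SE of 0.08.

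The largest falls outside the cytokine and chemokine lists included Edn1, the gene for the vasoconstrictor endothelin-1 (5.56-fold, SE 0.13), Rnd1, a small GTPase (6.18-fold), Col27a1, a fibrillar collagen (7.15-fold), and Ccnd2, a G1 cyclin (4.52-fold). For these 4 genes the 0 hr levels were no higher than 0.16. Adgrl2, Arhgap26 and Mamdc2 fell 5.93-fold, 5.47-fold and 4.47-fold. Mamdc2 was at 6.97 to 7.46 at 0 hr, 5.38 to 6.09 at 4 hr and 3.24 to 3.93 at 8 hr, so its levels were lower at each later time.

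Secreted protease and acute-phase genes went both ways. Of 22, 6 fell and 5 rose, with 3 falls without S513A 4 hr replicate 1 or S513A 8 hr replicate 2, and 7 falls and 11 rises after removal of length and GC trends. Serpinb2, an inhibitor of plasminogen activators, fell 3.72-fold, and Plau, which encodes the activator urokinase, rose by a log2 change of 1.16. Mmp9 (0.95) and the complement gene Cfb (0.99) also rose. Among 12 costimulatory and adhesion genes, 6 fell and 2 rose: the early activation marker Cd69 fell 3.93-fold, Cd80 3.13-fold, Vcam1 2.59-fold and Cd83 and Cd40 by 0.65 each on the log2 scale, while the PD-1 ligand gene Pdcd1lg2 rose 2.55-fold and Cd274, the other PD-1 ligand gene, by a log2 change of 0.32. In 4 of the 8 fits without 1 library, 1 of these genes rose in place of 2, namely without either WT 8 hr library, S513A 4 hr replicate 1 or S513A 8 hr replicate 2. Of the 10 nitric oxide, itaconate and arginine genes, 3 fell and 1 rose, with 1 fall without WT 4 hr replicate 1, WT 8 hr replicate 2, S513A 4 hr replicate 1 or S513A 8 hr replicate 2, and 2 rises without WT 4 hr replicate 2. Acod1, which makes itaconate, fell 1.63-fold from 12.17 to 12.32 at 4 hr to 11.47 to 11.64 at 8 hr. Ass1, which recycles citrulline to arginine, rose 1.55-fold. Nos2, the inducible nitric oxide synthase, had a log2 change of 0.35 with an interval of -0.16 to 0.87 and did not pass. Arg1 fell 2.42-fold with overlapping libraries, and its call was lost in 6 of the 8 fits.

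Macrophage identity genes were divided, with 7 of 28 lower and 7 higher. The mannose receptor gene Mrc1 (-1.20) and the complement genes C1qa (-0.69), C1qb (-1.06) and C1qc (-0.90) fell. The high-affinity IgG receptor gene Fcgr1 (1.31), the fractalkine receptor gene Cx3cr1 (1.16), Fcgr4 (0.98), Csf1r (0.59) and Adgre1 (0.50) rose. Among markers of other cells, Pdpn, which fell by 1.23 on the log2 scale, gave most of the mesothelial and fibroblast sum, which was 902 to 1010 CPM at 4 hr and 402 to 487 CPM at 8 hr. The eosinophil markers summed to 8.02 to 10.0 and 3.62 to 4.58 CPM and mast cell markers to 8.54 to 10.7 and 5.84 to 8.06 CPM, with 1 fallen gene each, Siglecf and Hdc. At 0 hr the mesothelial and fibroblast sum was lower than at 4 hr, at 256 to 261 CPM in WT and 243 to 267 in S513A. So was the mast cell sum, at 2.61 to 3.42 and 2.39 to 3.2 CPM. The eosinophil sum was higher at 0 hr, at 15.3 to 16.5 and 17.4 to 18.5 CPM. The part of other cells in the results above was not tested.

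Among metabolic lists, the NRF2 antioxidant and pentose phosphate genes were the ones with most rises: 8 of 19 rose and 1 fell, with 5 rises without S513A 8 hr replicate 2 and 2 falls without S513A 8 hr replicate 1 or S513A 4 hr replicate 2. Hmox1, which degrades haem, was at 9.37 and 9.15 in WT and 9.05 and 9.15 in S513A at 4 hr, and at 10.44 and 10.52 in WT and 10.05 and 10.26 in S513A at 8 hr. It rose 2.20-fold (log2 change 1.14, SE 0.10), Gclm, a subunit of the enzyme that begins glutathione synthesis, 1.93-fold, and Osgin1 1.70-fold. The pentose phosphate genes Pgd (0.65), G6pdx (0.37) and Tkt (0.28) rose as well. Slc7a11, the cystine importer, fell 1.77-fold.

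Among heat shock genes, Hspa1a rose 2.32-fold and Hsph1 2.27-fold, while the endoplasmic reticulum genes Hspa5 (-0.41) and Herpud1 (-0.43) fell. Of the 22 chaperone genes, 5 rose (22.7%, against 8.47% of all genes) and 2 fell (9.09%, against 8.57%). These were 2 rises and no fall without WT 4 hr replicate 1 or S513A 8 hr replicate 2, 3 rises and no fall without WT 8 hr replicate 2 or S513A 4 hr replicate 1, no fall without WT 8 hr replicate 1, 1 fall without S513A 8 hr replicate 1 or S513A 4 hr replicate 2, and 4 falls without WT 4 hr replicate 2. Cholesterol synthesis genes were divided 4 and 4 of 26 (15.4% each, against 8.57% lower and 8.47% higher of all genes). Dhcr7, the last enzyme of the pathway, rose 2.48-fold (SE 0.14). The number that fell ranged from 1 without WT 4 hr replicate 1, WT 8 hr replicate 2, S513A 4 hr replicate 1 or S513A 8 hr replicate 2, and 2 without WT 8 hr replicate 1, to 8 without WT 4 hr replicate 2, and 2 rose without WT 4 hr replicate 1 or WT 8 hr replicate 1. In the glycolysis and hypoxia list, Pfkp fell 1.76-fold and Adm, the adrenomedullin gene, 2.13-fold, and Hk3 rose 1.58-fold. Of the 30 genes, 3 fell and 5 rose (16.7%, against 8.47% of all genes), and 3 rose, a share near that of all genes, in each of 7 fits without 1 library, the exception being that without WT 4 hr replicate 2 (7 rises). Pparg, a lipid-sensing nuclear receptor, fell 1.85-fold between 4 and 8 hr, to levels of 2.13 to 2.67. Its 0 hr levels were 5.28 to 5.69, so it had already been lower at 4 hr. Of the 16 lipid uptake and efflux genes, 2 fell and 2 rose (12.5% each). In the ATF4 list Asns, which makes asparagine, fell 1.98-fold and Gdf15 1.83-fold. Of its 21 genes, 3 fell (14.3%, against 8.57% of all genes) and 1 rose (4.76%, against 8.47%). In the cell cycle list E2f1 rose 1.99-fold and Bub1b and Ccne1 fell 2.36-fold and 2.02-fold. Of its 25 genes, 5 fell (20.0%) and 3 rose (12.0%). Ctsd and Ctsl, lysosomal proteases, fell 1.34-fold and 1.65-fold with calls lost in 7 and 6 of the 8 fits. They were the only falls among 32 lysosome genes (6.25%, against 8.57% of all genes), and 1 rose (3.12%, against 8.47%).

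None of 82 cytosolic ribosomal protein genes passed the test (2 fell without WT 4 hr replicate 2), but their median log2 change was 0.28 in WT and -0.92 in S513A. Their mean levels were 8.18 and 7.57 in WT and 8.01 and 8.56 in S513A at 4 hr, and 8.08 and 8.23 in WT and 6.89 and 7.84 in S513A at 8 hr. WT 4 hr replicate 2 and S513A 8 hr replicate 1 were the lowest of the 8. The nuclear-encoded respiratory chain genes (77 tested, 1 higher, and 3 lower and none higher without WT 4 hr replicate 2) had medians of 0.31 in WT and -0.80 in S513A and were lowest in the same 2 libraries, at 5.81 and 5.33 against 6.11 to 6.67 in the rest. What sets these 2 libraries apart was not tested.

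The same comparison was made in each genotype alone, 2 libraries against 2, with a shared estimate of the spread from all 8 libraries. In WT alone, 507 genes fell (4.27%) and 406 rose (3.42%), and in S513A alone 521 fell (4.38%) and 599 rose (5.04%). The number called depended on single libraries in both: in WT it was 105 without WT 8 hr replicate 1, 131 without WT 8 hr replicate 2, 406 without WT 4 hr replicate 2, 594 and 604 without S513A 4 hr replicates 1 and 2, and 1530 without WT 4 hr replicate 1. In S513A it was 185 without S513A 4 hr replicate 2, 276 without S513A 8 hr replicate 1, 425 without S513A 4 hr replicate 1, 437 and 434 without WT 8 hr replicates 1 and 2, and 1793 and 1807 without WT 4 hr replicates 1 and 2. No gene passed the test of the difference between the genotypes' changes (0%, smallest adjusted p = 0.414 with limma), and 1311 had an unadjusted p under 0.05. With 2 libraries per group, this does not show that the genotypes changed alike.

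For the transcripts named as Regnase-1 targets, the change between 4 and 8 hr was given in each genotype. Il6 changed by -2.52 in WT and -2.88 in S513A on the log2 scale, and the difference of -0.36 had an interval of -1.51 to 0.80. Zc3h12a changed by -1.16 in WT and -0.87 in S513A, with a difference of 0.29 (interval -0.12 to 0.70). Nfkbiz changed by -1.80 and -1.58, Il12b by -1.67 and -1.93, Cxcl1 by -1.77 and -2.11 and Cxcl2 by -1.64 and -1.66. Ptgs2 changed by -1.85 in WT and -1.18 in S513A. Its difference of 0.68 had an interval of 0.20 to 1.15 and an adjusted p of 0.414, and its S513A levels of 8.38 and 8.35 at 8 hr lay above the WT levels of 7.45 and 7.71. Among other named genes, intervals left out 0 before adjustment in both directions. Over all 11885 genes tested this was so for 1311, so the genes below are not read as differing by genotype. The change was more positive in S513A for Il23a, Adgrl2 (difference 1.14, interval 0.14 to 2.15), Foxred2 (1.09, interval 0.23 to 1.96), Dusp8, Slc6a9, Rxra and Zfp36, and more negative for Cd80 (-0.93, interval -1.59 to -0.27), Ccne1 and Mvk.

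**Figure D5:**
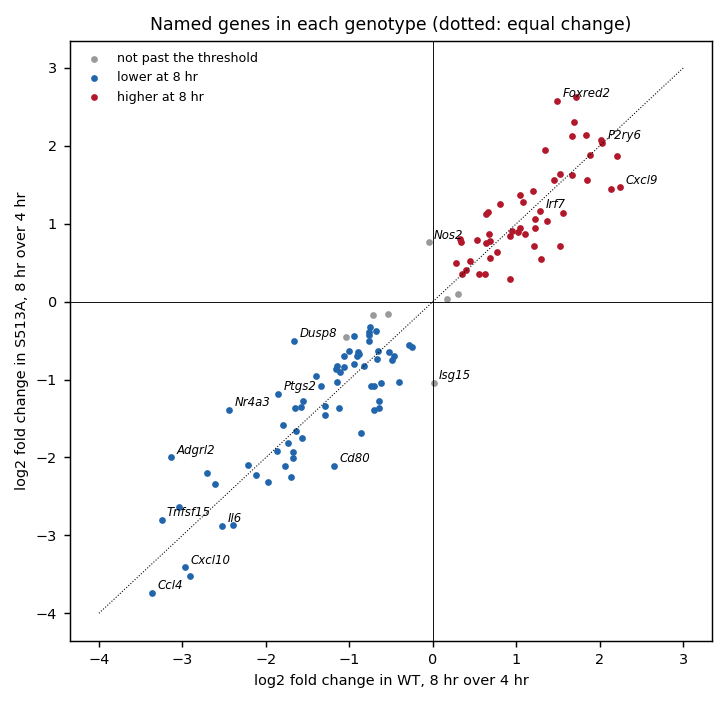
Log2 fold change, 8 hr over 4 hr, of the named genes except Il23a in WT (x axis) and in S513A (y axis), with 1 point per gene, coloured by the call in both genotypes together. Points lie on both sides of the dotted line of equal change, and no gene passed the test of the difference between genotypes.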

How the data were processed

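The authors mapped reads with HISAT2 to mm10 as unstranded and counted them with featureCounts 1.6.3 (submitters' processing notes). The deposited log2 values are log2 CPM, made by the authors from reads plus 0.5 over an effective library size, since whole reads came back for each gene (largest departure 0.00145 read). The program behind them is not given in the sources used here. Without strand, a gene and an antisense partner cannot be told apart. Genes of at least 1 CPM in at least 2 of 12 libraries were tested (11885 of 12850) with limma 3.58.1 in R 4.3.3, on the deposited values of the 8 libraries, with genotype and time as terms and a prior following the mean level (5 residual degrees of freedom, or 4 with a mean per group for each genotype alone and their difference). Tests were two-sided with Benjamini-Hochberg adjustment over the genes tested, called at 0.05, and checked on simulated data. The simulated libraries varied independently, with 1 setting of the spread for every gene, so that check does not cover deviations shared by many genes. Intervals are 95%. Fold changes, with no further pseudocount, understate changes of low genes.

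The comparison, gene lists and rules for named genes were chosen with earlier results of these data known. Named genes were the 12 largest falls and rises among called genes whose time points were separate and whose mean level reached 3, up to 4 called genes with the largest change per response or metabolic list, a list of common LPS response genes, and the 3 genes with the largest difference between genotypes if any passed. Other named list members and marker genes were chosen after their values were seen. Transcripts came from GENCODE vM21 (93.1% of listed genes), promoters from RefSeq GRCm38.p6. Some genes, and 1 site, are not reported here. Floors of 3 reads cover counting error only. Tables and plots used Python 3.11.15, pandas 2.3.3 and matplotlib 3.10.9. Alternatives were other filters, scalings, priors and weights, all 12 libraries, a replicate block, removal of length and GC trends (splines with 5 degrees of freedom), a factor of the replicate deviations, and each library left out. The counts in gene lists without WT 4 hr replicate 2 and after removal of those trends were chosen after seeing the data.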

Additional observations from a re-analysis of the deposited data

How the results depend on the processing

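The count of genes changed between 4 and 8 hr (2025 with limma) stayed within 1.5 times under every alternative except 3043 with all 12 libraries, 3545 after removal of length and GC trends, and the fits without 1 library, which gave 1102 (without S513A 8 hr replicate 2) to 2836 (without WT 4 hr replicate 2). In WT alone (913), the counts outside that range were 1690 with all 12 libraries, 565 without a trend in the prior, 2215 after removal of length and GC trends and 4442 with the first factor of the replicate deviations as a term, and the fits without 1 library gave 105 to 1530. In S513A alone (1120), they were 2175, 720, 2479 and 5175 in the same order, 2207 with a replicate block, and 185 to 1807 without 1 library. The difference between genotypes had 0 calls in every fit but that with the first factor as a term, which gave 3479. The design without it had 1311 genes with an unadjusted p under 0.05. That factor was estimated from the deviations it then removes. All 12 libraries add residual degrees of freedom, and why the other alternatives moved the counts was not tested.

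Whether same-numbered libraries share mice or cultures is not given in the labels. Their deviations correlated at -0.35 in WT and 0.76 in S513A, which does not settle whether they are paired. With a replicate block, the counts were 1489 for both genotypes, 1269 in WT, 2207 in S513A and 0 for the difference.

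Of 118 named genes past the threshold, 94 kept their call in all 8 fits without 1 library, and over the 11 other alternatives 1255 of 1284 values kept theirs. None of the 125 named genes changed direction in any fit. Calls lost in a fit without 1 library were those of Acsl1, Arg1, Atp5s, Ccl6, Cd36, Chac1, Ctsd, Ctsl, Dusp8, Gbp2b, H2-Oa, Hspa1b, Hspa8, Iigp1, Irak2, Mrpl38, Mvk, Myc, Pla2g4a, Rc3h1, Rxra, Scap, Slc7a2 and Tapbp. Depth limits the genes with under 20 reads in a library, among them Il23a, Gbp8, Lif, Nr4a3, H2-Oa, Arg1, Chac1, Pdcd1lg2, Dusp8, Gbp2b, Cxcl9, Adm, Atp5s and Cish.

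Removal of length and GC trends raised calls over all genes, to 1791 lower and 1754 higher of 11275, and moved other list counts by over 1.5 times. RNA decay genes became 10 lower and 2 higher, Toll-like receptor genes 3 higher, MHC class II genes 3 lower, costimulatory genes 4 higher, cholesterol genes 8 lower, ATF4 genes 9 lower, chaperone genes 9 higher, proteasome genes 6 higher of 33 and ribosomal protein genes 5 lower of 81. With quantile normalization, Toll-like receptor genes were 5 lower, cholesterol genes 2 lower and chaperone genes 10 higher. With a replicate block, RNA decay genes were 3 lower and glycolysis genes 3 higher.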
